A study of Canis lupus familiaris with 10 samples.

Results

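Vascular endothelial growth factors (VEGF) are secreted ligands that make blood and lymphatic vessels grow. VEGFA binds the receptor tyrosine kinases FLT1 (VEGF receptor-1) and KDR (VEGF receptor-2), of which KDR carries most of the growth signal and FLT1 binds VEGFA tightly but signals weakly. PGF and VEGFB bind FLT1, VEGFC acts mainly through FLT4 (VEGF receptor-3) on lymphatic endothelium, and the neuropilins NRP1 and NRP2 are coreceptors that also bind class 3 semaphorins. Hemangiosarcoma is a canine tumor of vessel-forming cells that commonly arises in the spleen. All probe sets of the array that are named for these 9 genes were taken, which gave 20 probe sets out of 42924 besides the controls.

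The arrays were Canine_2 expression arrays, with 1 array for each of 10 dogs, and each was hybridized with RNA of cultured cells grown from a splenic hemangiosarcoma and frozen at the earliest passages available. Golden Retrievers were 6 of these dogs (ChadG4, ChadG6, ChadG8, Frog, Journey, Tucker), and 3 purebred dogs formed the non-Golden Retriever group, namely the Portuguese Water Dog ChadP9, the Dalmatian Dal4 and the Rottweiler Joey. DD1 was a Golden Retriever cross, the F1 dog. The study asked whether breed leaves a mark on expression in these tumor cells, so the main comparison was Golden Retriever minus non-Golden Retriever with the F1 dog left out. The labels name no treatment, and normal tissue was not analysed here. The non-Golden Retriever group was all male by the study's records, so breed and sex are partly joined, and Frog and Journey were related.

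Values are log2 signals, on which 1 unit is a 2-fold change, and each SD is the spread between dogs. Probe sets differ in how well they bind, so the level of one gene is not set against that of another. A signal under the 40th percentile of its array, which lay between 5.02 and 5.16, is treated here as background, and a difference against such a signal gives less than the full size of the change. Of the 20 probe sets, 17 lay above that percentile on at least 3 of the 9 purebred arrays and were tested. All 9 genes had at least 1 tested probe set. The 3 that were not tested were 1 of 3 for FLT4 (4.66 to 5.13), 1 of 4 for NRP1 (3.05 to 3.64) and 1 of 3 for NRP2 (2.67 to 3.36).

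The arrays of Dal4 and ChadG4 stood furthest from the rest, at mean Euclidean distances of 145.0 and 138.7, against 101.4 to 124.2 for the other dogs. Dal4 is recorded as male, but its signal at a probe set of EIF2S3 was 2.95, against 3.08 to 3.33 in the 3 females and 10.15 to 10.60 in the other 6 males. At the 2 further EIF2S3 probe sets the sexes lay closer, with 12.56 and 11.47 in Dal4, against 12.98 to 13.23 and 12.01 to 12.12 in females and 12.22 to 13.18 and 10.89 to 12.19 in the other males. Of 15 endothelial marker genes measured, 7 lay above the 40th percentile on all 10 arrays and 5 on none. PECAM1 (4.03 to 4.72) and TEK (3.34 to 3.79), which define endothelium, were at background in every dog, while CDH5 lay just above it (5.15 to 5.41). EGFL7 (7.06 to 7.51) and ROBO4 (6.78 to 7.37) lay further above it on all 10 arrays. Member genes such as KDR were not counted among these markers. The mean over the endothelial markers was 5.23 to 5.40 in Golden Retrievers and 5.07 to 5.52 in non-Golden Retrievers. Fibroblast markers were high, with 6 of 7 above the 40th percentile on all arrays and a mean of 11.86 to 12.31 in Golden Retrievers and 11.01 to 12.22 in non-Golden Retrievers. Of 8 smooth muscle and pericyte markers, 5 lay above that percentile on all arrays and 1 on none, with TAGLN at 12.97 to 14.33 and RGS5 at 3.75 to 4.21. Of 10 myeloid and leukocyte markers, 5 lay above it on all arrays and 4 on none. Of 4 epithelial markers measured, 0 lay above it on all arrays and 1, CDH1, on none. KRT8 was at 9.45 to 11.67 in all dogs but ChadP9 (3.82). Fewer cells of a type and less RNA per cell cannot be told apart in such cultures.

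No member probe set passed the test between the breed groups after adjustment. Of 17 tested, 10 were higher and 7 lower in Golden Retrievers, and 0 passed an adjusted p of 0.05 in limma, where adjusted p-values ran between 0.772 and 0.992. The methods' t-test also passed 0 after adjustment, and by it 1 member, PGF, had an unadjusted p under 0.05. Over all 26787 tested probe sets, 1 passed (0.00373%), and that probe set is no member. At an unadjusted p under 0.05, 2 member probe sets were higher in Golden Retrievers, 1 of FLT1 and the only 1 of PGF, and 0 were lower. With single dogs left out this count ran between 0, without ChadG4 or without Dal4, and 4, without Frog or without Tucker. Of all tested probe sets, 1.81% were higher at that threshold and 6.33% passed it in either direction. Nothing is read from the count of 2, since that FLT1 probe set passed the filter on low signals only through Golden Retriever arrays. The median log2 difference was 0.07 over the tested members and -0.0175 over all tested probe sets, of which 47.13% were higher in Golden Retrievers. Every Golden Retriever lay above every non-Golden Retriever at 1 member probe set, again of FLT1, and this was so for 0.795% of all tested probe sets.

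**Figure D1:**
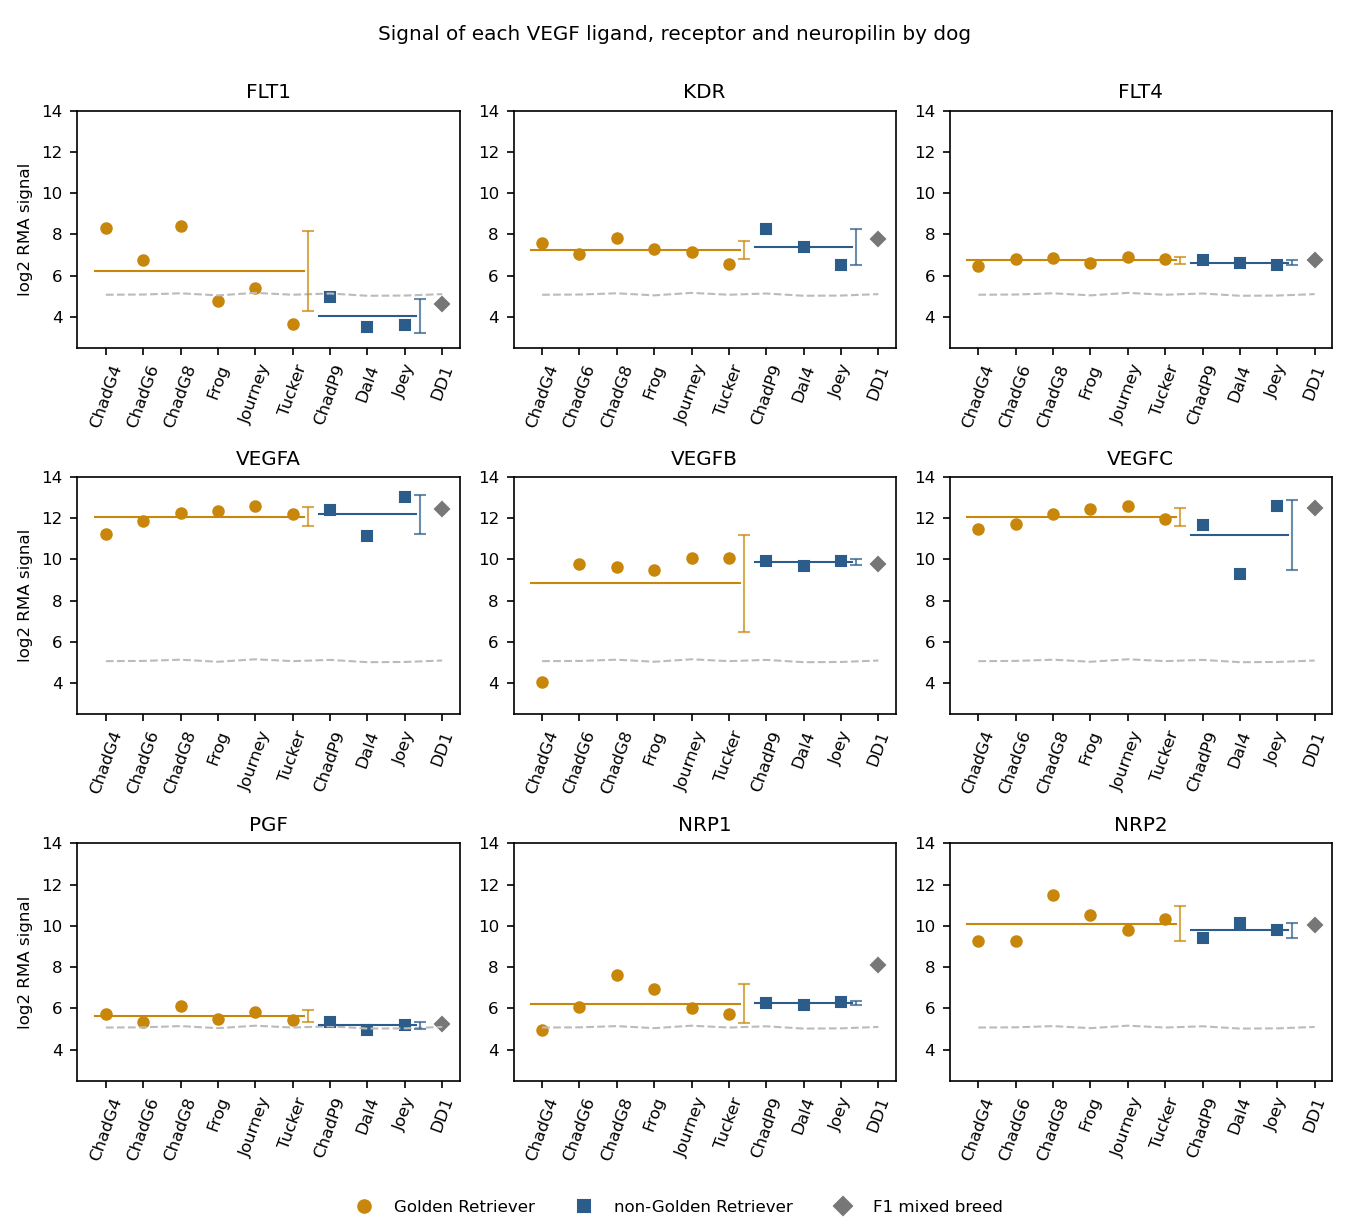
Log2 RMA signal (vertical axis) of each member gene at its highest-mean probe set in each dog (horizontal axis), with Golden Retrievers, non-Golden Retrievers and the F1 dog as circles, squares and a diamond. Horizontal lines and error bars are group means and SDs (n = 6 and n = 3), and the dashed line is the 40th percentile of each array. FLT1 is above the dashed line in 4 Golden Retrievers, VEGFB is at 4.06 in ChadG4 and VEGFC at 9.32 in Dal4.

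Among the receptors, FLT1 (chromosome 25) varied most between dogs. At Cfa.19323.1.S1_s_at, its signal was 8.32 in ChadG4, 6.77 in ChadG6, 8.38 in ChadG8, 4.75 in Frog, 5.39 in Journey and 3.67 in Tucker, against 4.98 in ChadP9, 3.50 in Dal4 and 3.60 in Joey, with 4.63 in the F1 dog. FLT1 thus stood clearly above background in 3 Golden Retrievers, slightly above it in Journey, and nowhere outside that breed. The groups overlapped, because Frog and Tucker had less signal than ChadP9. The group means were 6.21 ± 1.94 in Golden Retrievers (SD, n = 6) and 4.03 ± 0.831 in non-Golden Retrievers (SD, n = 3). The log2 difference of 2.19 (SE 1.04, 95% CI -0.15 to 4.52) did not pass (limma, adjusted p = 0.775).

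The other FLT1 probe sets gave a similar picture at lower signal, but only 3 Golden Retrievers, and not Journey, were above background there. At Cfa.3593.1.S1_s_at, Golden Retrievers had 6.48, 5.37, 6.71, 4.68, 4.84 and 4.23 in the same order of dogs, against 4.21, 4.03 and 3.95 in ChadP9, Dal4 and Joey, and 4.36 in the F1 dog. This is the probe set at which the groups did not overlap, but Tucker at 4.23 and ChadP9 at 4.21 nearly met, and both values were at background. Its difference was 1.32 (SE 0.532, unadjusted p = 0.0336, limma adjusted p = 0.772). At Cfa.19323.1.S1_at, Golden Retrievers had 7.68, 5.48, 7.74, 3.87, 4.21 and 2.84, against 3.44, 2.91 and 2.80 in non-Golden Retrievers and 3.97 in the F1 dog, a difference of 2.25 (SE 1.06, limma adjusted p = 0.775). All 3 FLT1 probe sets passed the filter on low signals only through Golden Retriever arrays, since 0 of 3 non-Golden Retriever arrays reached the 40th percentile at any of them.

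The 3 Golden Retrievers with high FLT1 are those whose names begin with Chad, a prefix that the labels do not explain and that 1 non-Golden Retriever, ChadP9, shares. At Cfa.19323.1.S1_s_at, the signals of Golden Retrievers were 6.77 to 8.38 with that prefix, against 4.98 in ChadP9, a gap of means of 2.84. Without the prefix they were 3.67 to 5.39, against 3.50 and 3.60 in Dal4 and Joey, a gap of 1.05. With the prefix as a block, which was chosen after these values were seen, the difference was 1.74 (limma, unadjusted p = 0.0117, adjusted p = 0.886). Without the block the unadjusted limma p there was 0.0633. At Cfa.3593.1.S1_s_at and Cfa.19323.1.S1_at the blocked differences were 1.12 and 1.84 (limma, unadjusted p = 0.0162 and 0.0284, adjusted p = 0.886 for both). Of 5 lymphatic endothelial markers, LYVE1, a hyaluronan receptor of lymphatic vessels and some macrophages, was also high in dogs with that prefix, at 9.32 in ChadG4, 8.32 in ChadG6, 7.09 in ChadG8 and 8.16 in ChadP9, though DD1 had 7.51, and lower in the rest (3.81 to 6.23). Of the 5 markers, 1 lay above the 40th percentile on all arrays and 1 on none. The mean over these markers was 5.89 to 8.44 in Golden Retrievers and 5.20 to 6.29 in non-Golden Retrievers. PROX1 (4.58 to 5.10), which defines lymphatic endothelium, and MMRN1 (2.97 to 3.32) were at or near background in all dogs. Single dogs carried the ends of that mean, as RELN, a secreted glycoprotein, was 12.86 in ChadG4 against 5.25 to 6.53 elsewhere, and PDPN (podoplanin) was 4.33 in ChadP9 against 11.28 to 12.79 in all other dogs. Their part in the FLT1 signal was not tested.

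**Figure D2:**
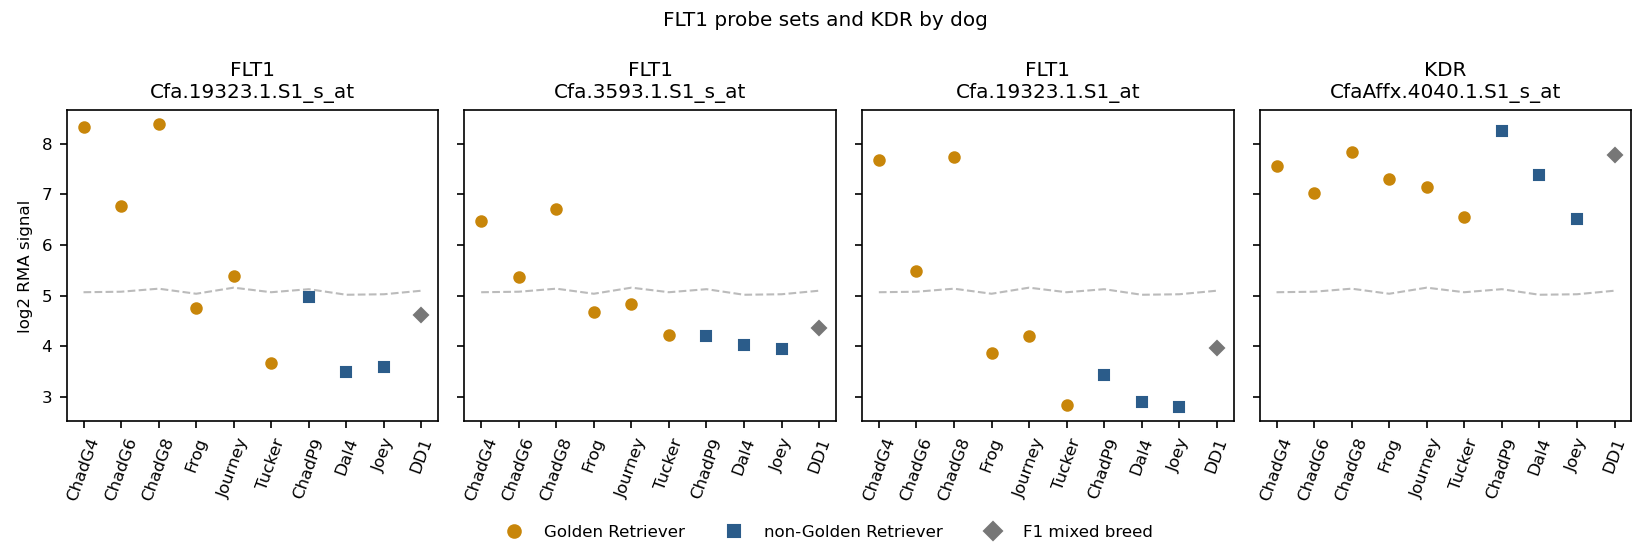
Log2 RMA signal (vertical axis) of the 3 FLT1 probe sets and the KDR probe set in each dog (horizontal axis), with the 40th percentile of each array dashed. ChadG4 and ChadG8 are highest in all 3 FLT1 panels, while KDR is above the dashed line in all 10 dogs and highest in ChadP9 at 8.25.

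KDR (chromosome 13) showed no such pattern. Its single probe set had 6.56, 7.22 and 7.83 as the lowest, median and highest signal in Golden Retrievers, against 8.25 in ChadP9, 7.38 in Dal4 and 6.51 in Joey, and 7.77 in the F1 dog. KDR was above background in every dog, and non-Golden Retrievers held both the highest and the lowest signal. The means were 7.24 ± 0.442 in Golden Retrievers and 7.38 ± 0.871 in non-Golden Retrievers, which differed by -0.14 (SE 0.378, 95% CI -0.99 to 0.71, limma adjusted p = 0.964), and this sign turned to 0.29 without ChadP9.

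FLT4 (chromosome 11), the receptor of lymphatic endothelium, had the most even signal of the receptors. At CfaAffx.1693.1.S1_at, its signal was 6.47 to 6.88 in Golden Retrievers, 6.50 to 6.75 in non-Golden Retrievers and 6.75 in the F1 dog. The difference was 0.12 (95% CI -0.19 to 0.44, limma adjusted p = 0.894). The other tested probe set, CfaAffx.1691.1.S1_at, lay close to background, at 5.16 to 5.61 in Golden Retrievers and 5.01 to 5.43 in non-Golden Retrievers. The untested probe set was at or near background, at 4.66 to 5.13. Whether the even signal at CfaAffx.1693.1.S1_at comes from FLT4 transcript was not tested.

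Of the ligands, VEGFA (chromosome 12), the main growth factor of blood vessels, had a signal at or above the 96th percentile of the array in every dog at Cfa.3581.1.S2_at. The lowest, median and highest signals in Golden Retrievers were 11.25, 12.22 and 12.57, against 12.41 in ChadP9, 11.15 in Dal4 and 13.01 in Joey, and 12.44 in the F1 dog. Dal4 and ChadG4, a dog of each group, were lowest. The difference was -0.11 (SE 0.405, 95% CI -1.02 to 0.80, limma adjusted p = 0.977), and it turned to 0.30 without Joey. At the other VEGFA probe set, signals were 8.41 to 10.51 in Golden Retrievers and 8.79 to 10.85 in non-Golden Retrievers, with a difference of -0.35 (SE 0.542).

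VEGFC (chromosome 16), the growth factor of lymphatic vessels, was high in all dogs but Dal4. Its signals in Golden Retrievers were 11.48 at the lowest, 12.07 at the median and 12.59 at the highest, against 11.65 in ChadP9, 9.32 in Dal4 and 12.59 in Joey, and 12.52 in the F1 dog. Golden Retrievers averaged 12.06 ± 0.421 and non-Golden Retrievers 11.19 ± 1.68, and only Dal4 lay outside the range of the other dogs. The difference of 0.87 (SE 0.599, 95% CI -0.47 to 2.22, limma adjusted p = 0.814) became -0.06 without that dog.

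VEGFB (chromosome 18), a ligand of FLT1 linked to the heart and to fat metabolism, was level in all dogs but ChadG4. At Cfa.21612.2.S1_a_at, ChadG4 had 4.06, which is background, against 9.48 to 10.08 in the other 5 Golden Retrievers, 9.95, 9.70 and 9.94 in ChadP9, Dal4 and Joey, and 9.78 in the F1 dog. The other probe set, CfaAffx.22458.1.S1_s_at, was lowest in the same dog but stayed above background, at 6.93 against 7.69 to 8.39 in the remaining Golden Retrievers and 7.90 to 8.09 in non-Golden Retrievers. The breed differences were -1.02 (SE 1.22) and -0.13 (SE 0.29), with limma adjusted p-values of 0.903 and 0.959. Without ChadG4 the first became -0.06 and the second 0.07.

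PGF (placental growth factor, chromosome 8) binds FLT1 but not KDR. Its signals lay little above background in all dogs but Dal4, where the signal was at background. They were 5.73 in ChadG4, 5.32 in ChadG6, 6.12 in ChadG8, 5.50 in Frog, 5.80 in Journey and 5.43 in Tucker, against 5.34 in ChadP9, 4.97 in Dal4 and 5.21 in Joey, and 5.24 in the F1 dog. Only ChadG6 among Golden Retrievers fell below the highest non-Golden Retriever. The means were 5.65 ± 0.293 in Golden Retrievers and 5.17 ± 0.188 in non-Golden Retrievers, which differed by 0.48 (SE 0.193, 95% CI 0.04 to 0.91, unadjusted p = 0.0343) that did not pass adjustment (limma, adjusted p = 0.772). With the Chad prefix as a block the difference was 0.45 (limma, unadjusted p = 0.0503, adjusted p = 0.886).

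The coreceptor NRP1 (chromosome 2) split dogs within the Golden Retriever group and not between groups. At Cfa.2332.2.S1_at, signals were 4.93 in ChadG4, 6.07 in ChadG6, 7.62 in ChadG8, 6.95 in Frog, 6.03 in Journey and 5.71 in Tucker, against 6.26 in ChadP9, 6.18 in Dal4 and 6.33 in Joey. The F1 dog was highest at 8.08, and the 3 non-Golden Retrievers lay close together. The difference was -0.04 (SE 0.499, 95% CI -1.16 to 1.08, limma adjusted p = 0.992), and it became 0.22 without ChadG4. The remaining tested probe sets of NRP1 also put the F1 dog first (6.55 and 6.45) and ChadG4 last (4.88 and 4.23).

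NRP2 (chromosome 37), which pairs with FLT4 in lymphatic endothelium, had 9.26, 10.05 and 11.50 as the lowest, median and highest signals of Golden Retrievers at CfaAffx.20524.1.S1_s_at, against 9.41 in ChadP9, 10.15 in Dal4 and 9.78 in Joey, and 10.06 in the F1 dog. ChadG8 was highest here and second to the F1 dog for NRP1. The difference was 0.33 (SE 0.471, limma adjusted p = 0.924), and it became 0.05 without ChadG8 and 0.14 without ChadP9. A further NRP2 probe set was flat, at 6.96 to 7.41 over all dogs, with a difference of 0.04.

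**Figure D3:**
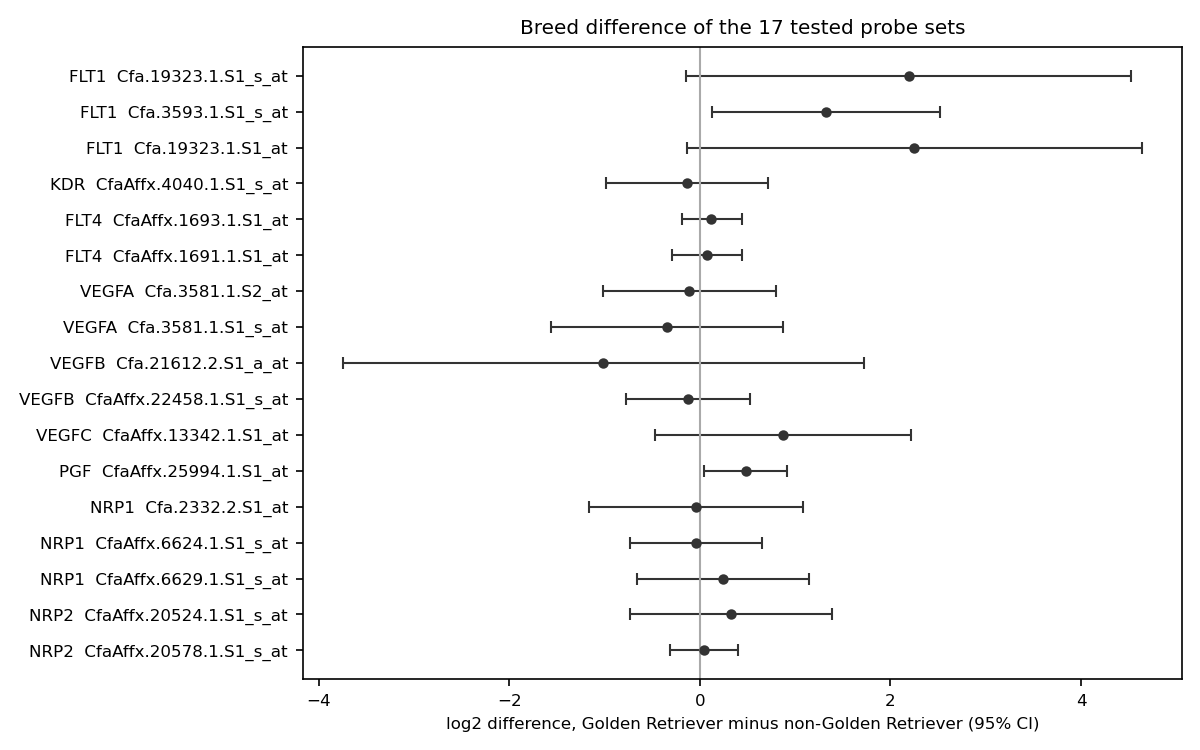
Breed differences of the 17 tested member probe sets (rows), as Golden Retriever minus non-Golden Retriever in log2 units (horizontal axis), with 95% confidence intervals from limma (6 dogs against 3). The 3 FLT1 differences lie at 1.32 to 2.25, and the intervals of Cfa.3593.1.S1_s_at and of PGF alone leave out 0 before adjustment.

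Where a gene had several tested probe sets, most pairs of them were correlated over the 10 dogs. Of 10 such pairs, 8 had a Benjamini-Hochberg adjusted permutation p under 0.05 by Pearson's r, which was 0.91 to 0.99 in these, and 7 by Spearman's rho, which left out CfaAffx.6624.1.S1_s_at with CfaAffx.6629.1.S1_s_at of NRP1 (rho = 0.64, adjusted permutation p = 0.0685). The exceptions by both were the pair of FLT4 (r = 0.36, Spearman's rho = 0.25, permutation p = 0.299 and 0.495, adjusted p = 0.333 and 0.55) and the pair of NRP2 (r = 0.14, rho = 0.16, permutation p = 0.717 and 0.656, adjusted p = 0.717 and 0.656). At both genes at least 1 probe set had a range over dogs under 0.5. For FLT1, r between the probe sets was 0.97 to 0.99, and it was still 0.92 to 0.97 without ChadG8 and ChadG4.

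Over 36 pairs of member genes, 1 pair passed the adjusted permutation test over the 10 dogs. VEGFA and VEGFC, the main ligands of KDR and of FLT4, were high and low in the same dogs (r = 0.82, permutation p = 0.00018, adjusted p = 0.00648, and rho = 0.88, permutation p = 0.00152, adjusted p = 0.0547). Without Dal4 and ChadG4, the dogs farthest from the median of VEGFA, r was 0.68 (exact permutation p = 0.0504). Leaving out ChadG4 alone gave 0.90 (permutation p = 0.00224) and Dal4 alone 0.78 (permutation p = 0.00284). Within the 6 Golden Retrievers r was 0.93 (exact permutation p = 0.00139, the smallest that 6 dogs allow), with Journey highest and ChadG4 lowest for both genes.

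The receptor FLT1 and its ligand PGF came next (r = 0.75, permutation p = 0.012, adjusted p = 0.216, and rho = 0.78, permutation p = 0.0102, adjusted p = 0.183). Without ChadG8 and ChadG4, r was 0.42 (exact permutation p = 0.294). Leaving out ChadG4 alone gave 0.75 (permutation p = 0.023) and ChadG8 alone 0.61 (permutation p = 0.0822). Within the 6 Golden Retrievers r was 0.58 (exact permutation p = 0.222). NRP1 and NRP2 had r = 0.61 (permutation p = 0.0615, adjusted p = 0.443) and rho = 0.50 (permutation p = 0.144, adjusted p = 0.797), with 0.52 without the F1 dog and ChadG8 and 0.84 within the Golden Retrievers (exact permutation p = 0.0444). In all, 29 of 36 pairs had r above 0, 4 had an unadjusted p under 0.05 by Pearson's r and 2 by Spearman's rho, and r ran between -0.59 for FLT1 with VEGFB and the 0.82 of VEGFA with VEGFC. FLT4 and VEGFB had r = 0.59 (permutation p = 0.0239, adjusted p = 0.287) and rho = 0.43 (permutation p = 0.217, adjusted p = 0.797), with 0.58 without ChadG4 and Joey. For FLT1 with VEGFB, rho was -0.37 (permutation p = 0.296, adjusted p = 0.797) and the permutation p of r was 0.047 (adjusted p = 0.423). That r of -0.59 became -0.10 without ChadG8 and ChadG4, of which ChadG4 had both high FLT1 and no VEGFB signal above background at that probe set.

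FLT1 and KDR, the receptors that share VEGFA, had r = 0.41 (permutation p = 0.234, adjusted p = 0.766) and rho = 0.41 (permutation p = 0.247, adjusted p = 0.797) over the 10 dogs, and r = 0.24 without ChadG8 and ChadG4. Within the 6 Golden Retrievers r was 0.83 (exact permutation p = 0.0403, unadjusted), with ChadG8 and ChadG4 highest and Tucker lowest for both. ChadP9, the F1 dog and Dal4 broke this order. Their KDR signals of 8.25, 7.77 and 7.38 went with FLT1 signals of 4.98, 4.63 and 3.50 at background. Among Golden Retrievers, ChadG6 lay above Frog and Journey for FLT1 (6.77) but below both for KDR (7.03).

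**Figure D4:**
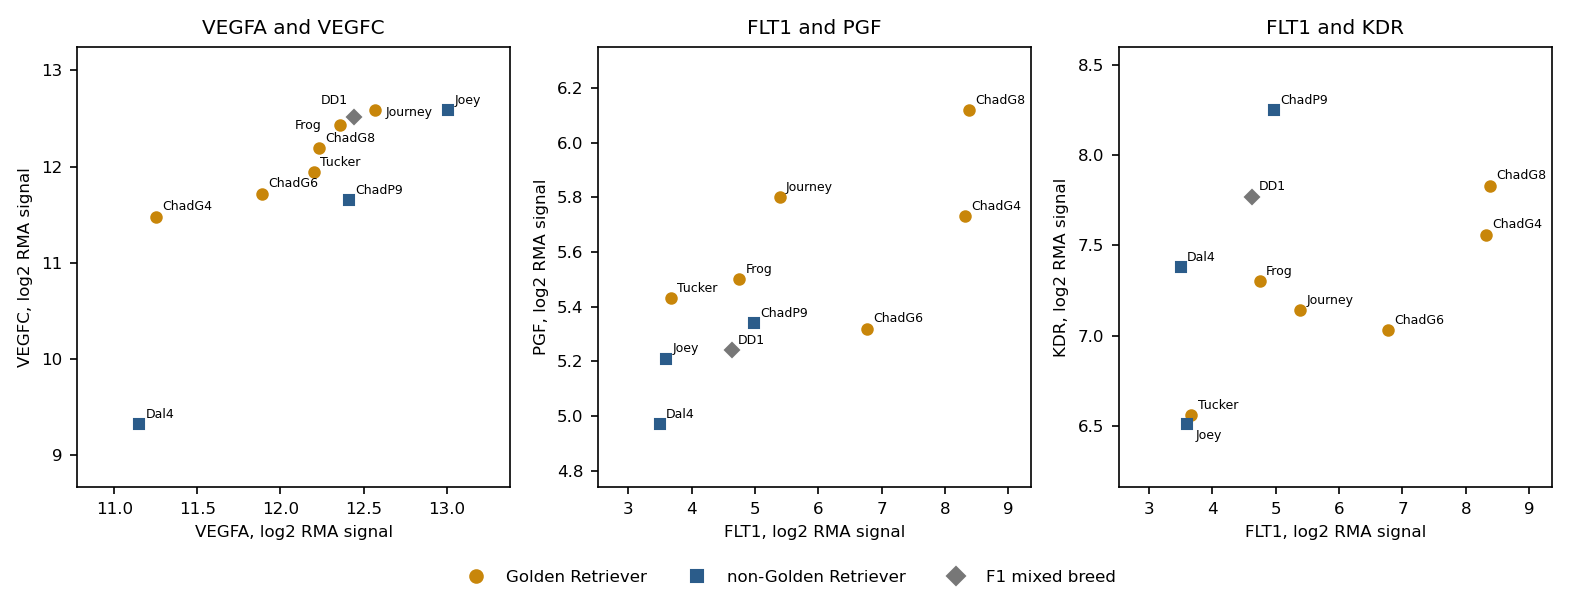
Each point is 1 of 10 dogs, with the log2 RMA signal of VEGFA against VEGFC, FLT1 against PGF and FLT1 against KDR on the axes. VEGFA and VEGFC are lowest in Dal4 (11.15 and 9.32), ChadG8 is highest for both FLT1 and PGF, and ChadP9 has the highest KDR at an FLT1 signal of 4.98.

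The genes most like the FLT1 pattern over the 10 arrays, among probe sets of other genes with an SD of at least 0.5, were chosen by their r and so carry no test. CDH13 (T-cadherin, a cadherin without a cytoplasmic tail, r = 0.93) had 11.32, 10.52 and 11.31 in ChadG4, ChadG6 and ChadG8, against 6.42 to 8.12 in the other dogs of both groups. DEFB124 (a beta-defensin, r = 0.89), NMS (the neuropeptide neuromedin S, r = 0.89), PLK2 (a polo-like kinase, r = 0.88) and CD59 (an inhibitor of the complement membrane attack complex, r = 0.87) followed. The genes most like KDR were TNS1 (tensin-1, a focal adhesion protein, r = 0.90), ME3 (a mitochondrial malic enzyme, r = 0.90), MYO1C (an unconventional myosin, r = 0.89), JADE1 (a chromatin-associated PHD finger protein, r = 0.88) and LOC480492 (r = 0.87). TNS1 and MYO1C shared with KDR the highest signal in ChadP9, at 8.04 and 9.85.

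Genes around these ligands and receptors were described with lists of pathway members, 1 probe set a gene, and 0 of their 76 tested genes passed an adjusted p of 0.05 in limma. At an unadjusted p under 0.05 there were 6 list genes (7.89%), against 6.33% of all tested probe sets. Downstream of the receptors, 9 of 26 tested signaling genes were higher and 17 lower in Golden Retrievers, with a median difference of -0.06. At an unadjusted p under 0.05, PLCG1 (phospholipase C gamma 1, which KDR activates) had a difference of -0.55 (6.58 to 7.01 in Golden Retrievers, 7.01 to 7.60 in non-Golden Retrievers, limma adjusted p = 0.772). PTPN11, the phosphatase SHP2, had a difference of -0.84 (6.51 to 7.54 in Golden Retrievers, 7.50 to 7.80 in non-Golden Retrievers). PPP3CA, the catalytic subunit of calcineurin that acts downstream of calcium, had a difference of 0.83 (10.20 to 11.63 in Golden Retrievers, 9.59 to 10.98 in non-Golden Retrievers).

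Of 15 tested genes known to be induced by VEGF in endothelial cells, 14 were higher and 1 lower in Golden Retrievers. Over all tested probe sets 47.13% were higher. The median difference was 0.32, against -0.0175 over all tested probe sets, and 2 of the 15 genes had an unadjusted p under 0.05 (limma). Some of the differences were small, such as those of EGR3 (0.04), CD34 (0.11) and APLN (0.17). F3 (tissue factor, which starts coagulation) had 10.47 to 13.39 in Golden Retrievers and 8.60 to 10.97 in non-Golden Retrievers, a difference of 2.46 (SE 0.702, unadjusted p = 0.00623, limma adjusted p = 0.772). RCAN1, an inhibitor of calcineurin, had 8.10 to 10.72 in Golden Retrievers and 7.31 to 9.17 in non-Golden Retrievers, a difference of 1.47 (unadjusted p = 0.043). These genes answer to many signals other than VEGF, and the 9 members were taken out of the lists. The lists were chosen with earlier results of these data known, so the count of 14 carries no test.

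Of 14 genes that control VEGFA through hypoxia-inducible factors or are its companion targets, 8 were higher and 6 lower, and 0 had an unadjusted p under 0.05. Their median of 0.17 became -0.06 without Dal4. The smallest p-values belonged to CA9 (carbonic anhydrase 9, difference 1.68), LDHA (lactate dehydrogenase A, 0.41) and SLC2A1 (the glucose transporter GLUT1, 0.94). Among 11 partners of the neuropilins, 8 were higher and 3 lower, and their median of 0.17 became -0.09 without ChadG4. PLXNA2, a plexin that transmits semaphorin signals with neuropilins, had 6.33 to 8.62 in Golden Retrievers and 3.77 to 6.32 in non-Golden Retrievers, a difference of 2.47 (SE 0.595, unadjusted p = 0.00223, limma adjusted p = 0.772). Its groups did not overlap, as for 0.795% of all tested probe sets, but the nearest dogs, at 6.33 and 6.32, almost met. Of 10 genes that cleave or bind the ligands, 8 were higher and 2 lower, and 0 had an unadjusted p under 0.05. They were led by the proprotein convertase PCSK5 (difference 2.09), CCN2 (which binds VEGFA, 1.21) and SPARC (a matrix protein, 0.22). PCSK5 had 7.13 to 9.52 in Golden Retrievers and 4.10 to 8.89 in non-Golden Retrievers, so the groups overlapped. CCN2 had 12.88 to 13.36 in Golden Retrievers, within the 9.76 to 13.40 of non-Golden Retrievers.

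**Figure D5:**
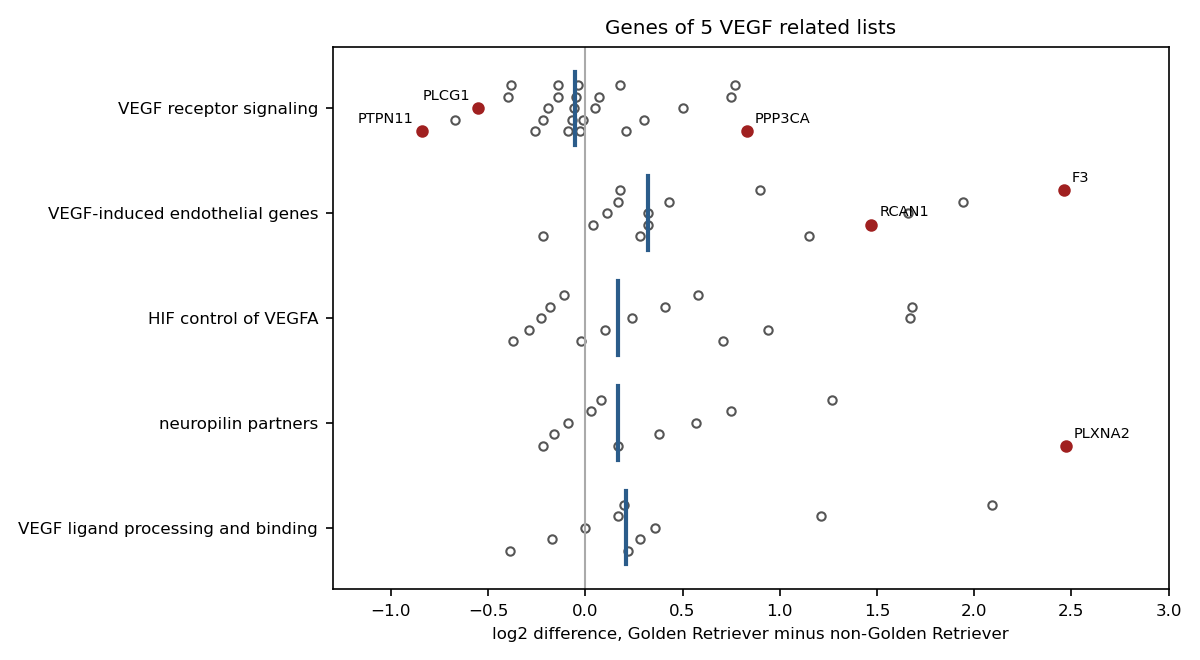
Each circle is 1 tested gene of 5 lists (rows), placed at its breed difference in log2 units (horizontal axis, Golden Retriever minus non-Golden Retriever), with the median of each list as a vertical bar and genes at an unadjusted p under 0.05 filled and named. Over all 9 dogs only the signaling list has its median below 0, at -0.06, and F3 and PLXNA2 lie farthest to the right at 2.46 and 2.47.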

How the data were processed

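The deposited table holds log2 signals that the authors computed with RMA (the affy package, per the submitters' processing notes) from 10 Canine_2 arrays. Their filter on absent genes was not applied to it, and detection calls were not used here. From it, 111 control probe sets were left out. Gene names came from the platform annotation, updated through gene IDs to the dog assembly UU_Cfam_GSD_1.0, which also gave chromosomes. PGF was matched by symbol because its gene ID differs. Of 42924 probe sets, 29254 named 1 gene, 439 several and 13231 none.

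Of these, 26787 exceeded their array's 40th percentile in 3 or more of the 9 purebred dogs and were tested with limma 3.58.1 in R 4.3.3, Golden Retriever minus non-Golden Retriever, two-sided, Benjamini-Hochberg adjusted over all tested. The fit was tested on simulated data. Correlations used 1 probe set a gene, the highest mean, with two-sided permutation tests (100000 resamples for 10 dogs, exact for 6 or 8). All member probe sets are named. Pathway genes are named at an unadjusted p under 0.05, otherwise the 3 with the smallest p in a list, and the 5 genes with the highest r are named for FLT1 and KDR. The members and lists were chosen with earlier results of these data known. Each dog gave 1 array, so the breed tests set a difference against a spread that joins dogs, culture and array error. The number of arrays limits the precision. Alternatives were other filters, the methods' t-test, median centring, the F1 dog in either group, males alone and each dog left out. Blocks by name prefix, dogs without it, and subsets without Dal4 and ChadG4 or of males without Dal4 were chosen after seeing the data. Figures were drawn with matplotlib 3.10.9.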

Additional observations from a re-analysis of the deposited data

Results flagged for a closer look

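VEGFB in ChadG4 was the lowest of 6 Golden Retrievers by a wide gap, 4.06 at Cfa.21612.2.S1_a_at against 9.48 to 10.08 in the other 5. The gap to the nearest dog was 0.900 of the whole range of the group, above Dixon's 95% critical value for 6 samples. This was 1 of 20 member probe sets looked at, and chance flags about 1 in 20 such groups. The second VEGFB probe set was also lowest in ChadG4 (6.93 against 7.69 to 8.39).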

How the results depend on the processing

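The member count at an adjusted p under 0.05 was 0 under all alternatives run, and all 58 alternative FLT1 differences were above 0, between 0.59 and 3.04. Those 58 values reuse the same dogs and 3 closely correlated probe sets. All 3 probe sets passed the filter only through Golden Retriever arrays, so the shared sign is no further support for a difference. At the study's list threshold, an unadjusted p under 0.001, the methods' t-test called 32 probe sets and 0 members. Of 333 alternative member differences, 301 kept their sign and 0 passed adjustment. The single call over all probe sets became 2 by the methods' t-test after Benjamini-Hochberg adjustment, 0 with the F1 dog as a non-Golden Retriever, 2 without Dal4 and ChadG4, and 1 to 2 with single dogs left out. At an unadjusted p under 0.05, 1695 probe sets became 918 with the F1 dog as a non-Golden Retriever, 1083 in males without Dal4, 1076 without Dal4 and ChadG4, and 966 (without Dal4) to 3141 (without ChadP9) with single dogs left out. The 60th percentile filter left both members at that threshold untested, so its count of 0 says nothing about them. The 2 members became 1 by the methods' t-test, 1 in males without Dal4 and 0 with the F1 dog as a Golden Retriever. They became 3 with the F1 dog as a non-Golden Retriever and 3 with the Chad prefix as a block. The count was 0 among dogs without the Chad prefix and 0 without Dal4 and ChadG4. With single dogs left out it was 0 (without ChadG4 or Dal4) to 4 (without Frog or Tucker). The 6 list genes became 5 to 12 with single dogs left out (12 without ChadP9, 10 without Joey), and 4 by the methods' t-test and in males without Dal4.

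The single correlated pair became 0 without the 2 dogs farthest on the x axis, 0 among Golden Retrievers alone (where the smallest exact permutation p of 6 dogs, 0.00139, cannot pass over 36 pairs), 0 with the mean of a gene's probe sets, and 0 to 1 with single dogs left out (0 without ChadG4 or Dal4).

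With the F1 dog as a Golden Retriever, NRP1 was 0.22 and 0.09 at Cfa.2332.2.S1_at and CfaAffx.6624.1.S1_s_at, and as a non-Golden Retriever -0.10 at CfaAffx.6629.1.S1_s_at. In males NRP2 at CfaAffx.20578.1.S1_s_at was -0.05, and in males without Dal4 it was -0.12 and VEGFC was -0.25. Among dogs without the Chad prefix, KDR was 0.05, NRP1 0.02 at CfaAffx.6624.1.S1_s_at, VEGFA 0.26 at Cfa.3581.1.S1_s_at and 0.30 at Cfa.3581.1.S2_at, and VEGFB 0.05 and 0.13. Without Dal4 and ChadG4, FLT4 was -0.02 at CfaAffx.1691.1.S1_at, NRP1 0.18 and 0.10, and VEGFB 0.01 at CfaAffx.22458.1.S1_s_at. With single dogs left out, the ranges were -0.05 to 0.16 for FLT4 at CfaAffx.1691.1.S1_at, -0.58 to 0.29 for KDR, -0.32 to 0.22 and -0.20 to 0.10 for NRP1 at Cfa.2332.2.S1_at and CfaAffx.6624.1.S1_s_at, -0.02 to 0.16 for NRP2 at CfaAffx.20578.1.S1_s_at, -0.88 to 0.14 and -0.63 to 0.30 for VEGFA at Cfa.3581.1.S1_s_at and Cfa.3581.1.S2_at, -0.23 to 0.07 for VEGFB at CfaAffx.22458.1.S1_s_at and -0.06 to 1.57 for VEGFC. The causes were not tested. No paired analysis was possible because the breed groups are different dogs and the labels pair none of them.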

Other observations

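Low signals of single members were set beside those of genes within 1 Mb on the same chromosome, as the signal in that dog minus the median of the other dogs. In Dal4, VEGFC was at -2.87 on chromosome 16. Its 4 tested neighbours were all lower too, with a median of -1.20, 3 of them below -1 and AGA lowest at -1.28, while the median of 225 tested genes of that chromosome was -0.33. In ChadG4, VEGFB was at -5.71 on chromosome 18, and its 63 tested neighbours had a median of -0.03, with PLAAT3 lowest at -1.07. NRP1 in ChadG4 was at -1.34 on chromosome 2, and its 6 neighbours had a median of 0.32. Copy number was not measured on these arrays, and the dogs and genes were chosen after their values were seen.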
